A study of Mus musculus with 18 samples.

Results

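AOS given on top of a high fat diet with STZ was compared with the same diet and STZ alone in mouse testis, gene by gene. The comparison used the 6 libraries that the labels assign to these treatments, out of 18 libraries in the series, and 13874 of 20979 genes, namely those with a value of at least 1 RPKM in at least 3 of the 18 libraries. RPKM is the number of reads of a gene scaled to the kilobase length of its transcript and to the depth of the library. Every animal was of the ICR strain, an outbred laboratory stock, and 10 weeks old. The group named here HFD-STZ received a high fat diet and STZ (streptozotocin, a toxin of insulin-producing beta cells), and the group HFD-STZ-AOS received the same diet and STZ together with AOS at 10 mg/kg, each with 3 libraries. AOS is not spelled out in the labels; the abbreviation is commonly used for alginate oligosaccharides. The other groups, also of 3 libraries each, were a control, AOS at the same dose without the diet, and HFD-STZ followed by fecal microbiota transfer (FMT), with AOS-treated or control animals as donors. The labels do not say whether the 3 libraries of a group came from separate animals, so the p-values below measure the spread between these libraries, and RNA of whole testis was read, in which germ cells far outnumber the other cell types.

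The testis makes sperm from spermatogonia through meiotic spermatocytes to round and then elongating spermatids, which shut down transcription while their stored messages are translated into protamines and flagellar parts. Sertoli cells nurse these germ cells inside the tubules, and Leydig cells between the tubules make testosterone under the control of luteinizing hormone. Germ cells behind the blood-testis barrier carry little MHC class I on their surface, and antigen presentation in the testis is a matter mostly of somatic cells such as macrophages. A high fat diet with STZ is used as a rodent model of type 2 diabetes.

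Defining genes of the labelled tissue were high in all 6 libraries. Prm1, which encodes the protamine that packs sperm DNA, stood at 12857 to 16703 RPKM, and Insl3, a hormone of Leydig cells, at 3016 to 3881 RPKM. The deposited values summed to between 588160 and 646910 RPKM per library, 13026 to 13494 genes reached 1 RPKM, and the steps between low values gave an estimated depth of 11.9 to 13.1 M reads (M, megareads). HFD-STZ-AOS replicate 3 stood apart from the other libraries. Its Pearson correlations across genes were 0.988 and 0.9881 with its own group and 0.9863 to 0.987 with HFD-STZ, whereas replicates 1 and 2 of its group correlated at 0.9946 and the 3 HFD-STZ libraries at 0.9928 to 0.9939. Epididymal and fat markers were high in that library. Crisp1, a secretory protein of the epididymis, was at 0.15 RPKM in each HFD-STZ library and at 2.93, 0.45 and 157 RPKM in HFD-STZ-AOS replicates 1, 2 and 3. The summed level of 30 epididymal genes was 922 RPKM in replicate 3 against 381 to 451 RPKM in the other 5 libraries, and that of 19 adipose genes was 444 against 290 to 304 RPKM. Of the epididymal genes 17 passed the filter and 3 were at 0 in all 6 libraries. Fabp4, a fatty acid carrier of fat cells, showed the same library at 72.5 RPKM against 3.15 to 11.5 RPKM in the others. Medians and counts of calls without this library stand below beside the gene groups in which it moved them.

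No gene passed the threshold of an adjusted p of 0.05 in the limma fit (0% of 13874 genes), and the smallest adjusted p was 0.0805. The adjusted p was under 0.1 for 8 genes and under 0.2 for 199. At an unadjusted p under 0.05, 865 genes (6.23%) were higher in HFD-STZ-AOS and 869 genes (6.26%) were lower. The 3 values of HFD-STZ-AOS all lay above those of HFD-STZ for 1023 genes (7.37%) and all below for 1359 genes (9.80%). Most differences were small. The median difference in log2(RPKM + 1) was -0.007, and 95% of the genes differed by no more than 0.29 in either direction. Without HFD-STZ-AOS replicate 3, 0 genes passed, and 840 genes were higher and 1066 lower at an unadjusted p under 0.05. In simulated data with the same number of genes, the fit recovered 20% of genes changed by 0.25 on the log2 scale, 82% at 0.5, 98% at 1 and 100% at 2. The changed genes all had a mean above 2 on the log2 scale, so lower genes were not covered. The simulated noise was normal and independent, with no outlying library and no trend by transcript length. These shares therefore do not say which changes were missed in the real libraries.

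Ypel3, a small zinc-binding protein of the Yippee-like family linked to growth arrest, had the smallest p of all genes. Its values were 27.1, 24.4 and 26.4 RPKM in HFD-STZ and 34.5, 34.2 and 32.0 RPKM in HFD-STZ-AOS, so the groups did not overlap. The log2 difference was 0.36 ± 0.06 (SE, adjusted p = 0.0805). Genes named for the smallest p or the largest difference were chosen among genes without overlap, so separate groups are no result for them. Myl6, the essential light chain of non-muscle myosin, was read at 94.2, 96.1 and 102 RPKM and then at 116, 118 and 122 RPKM with AOS, a difference of 0.28 ± 0.05 (adjusted p = 0.0805). Again every HFD-STZ-AOS library was above every HFD-STZ library. Cplx4, a complexin that regulates vesicle fusion, was low in both groups, with 0.980, 0.590 and 0.940 RPKM against 1.94, 1.56 and 1.75 RPKM (0.59 ± 0.10, adjusted p = 0.0845). Its group mean was 2.09 times that of HFD-STZ. Hint2, a mitochondrial nucleotide hydrolase, went from 4.60, 5.51 and 4.64 RPKM to 7.10, 6.94 and 7.02 RPKM (0.44, adjusted p = 0.162). The other genes with small p and higher values were Pfn3, a testis profilin that binds actin (0.37), Lgals1, which encodes galectin-1 (0.37), the ubiquitin ligase gene Rnf148 (0.22), and the ribosomal protein genes described below. Their adjusted p was 0.170.

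Wdr60, the dynein-2 intermediate chain needed to move cargo back down cilia, was the assigned gene with the smallest p among those that were lower. It was at 34.2, 32.4 and 34.9 RPKM in HFD-STZ and at 28.1, 26.4 and 24.5 RPKM in HFD-STZ-AOS, with no overlap and a log2 difference of -0.35 ± 0.06 (adjusted p = 0.0805). Scaper, a partner of cyclin A at the endoplasmic reticulum, was at 28.7, 28.7 and 27.0 RPKM and at 23.3, 22.0 and 22.1 RPKM (-0.31 ± 0.06, adjusted p = 0.0845). The values of each group lay close together. Smaller differences with adjusted p = 0.170 belonged to the mitotic kinesin Kif20a (-0.21), the nuclease scaffold Slx4 (-0.22), the spindle pole protein Wdr62 (-0.17), the cAMP phosphodiesterase Pde8a (-0.17), the EF-hand gene Efcab5 (-0.22), the zinc finger gene Zfp592 (-0.20) and the TATA-binding protein Tbp (-0.18). Runx1t1, a transcriptional corepressor, was at 2.33, 1.87 and 1.99 RPKM against 1.26, 1.12 and 1.55 RPKM (-0.41).

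Larger differences came from genes whose replicates also varied more. Zfp982, a zinc finger gene on chromosome 4, was at 11.3, 19.3 and 8.81 RPKM in HFD-STZ and at 2.68, 4 and 2.91 RPKM in HFD-STZ-AOS (-1.70 ± 0.42, adjusted p = 0.194). HFD-STZ replicate 2 was well above its fellows, and the groups did not overlap. P2rx5, an ATP-gated ion channel, was at 1.59, 2.55 and 0.380 RPKM against 4.76, 4.64 and 4.97 RPKM (1.31 ± 0.40, adjusted p = 0.216). Controls were at 5.19 ± 2.0 RPKM (SD, n = 3), so the HFD-STZ libraries were the low ones in this gene, and AOS replicate 3 (1.78 RPKM) and replicate 3 of the transfer from control donors (2.54 RPKM) lay among them. Irak1bp1, which binds a kinase of interleukin-1 signalling, was at 18.4, 26.9 and 26.9 RPKM against 38.3, 45.5 and 37.8 RPKM (0.75). Smok2a, a sperm motility kinase, was at 8.14, 5.78 and 3.99 RPKM against 10.1, 10.3 and 10.0 RPKM (0.72). In both the groups stood clear of each other. Cpa3, a protease of mast cells, was at 0.390, 0.340 and 0.630 RPKM against 2.21, 3.33 and 0.720 RPKM (0.99), where HFD-STZ-AOS replicate 3 came close to the HFD-STZ libraries. Klk1b21, a kallikrein with near-identical neighbours that make its level uncertain, was at 2.48, 5.12 and 10.8 RPKM against 1.85, 0.680 and 1.1 RPKM (-1.55). Olfr1280, an olfactory receptor gene, had a difference of -1, and Ttc22 one of 0.66.

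Some predicted genes ranked with these and were singled out after their values had been seen. Gm6569 was at 36.9, 37.0 and 35.6 RPKM in HFD-STZ and at 45.9, 50.6 and 44.5 RPKM in HFD-STZ-AOS (0.35, adjusted p = 0.0805). Gm21366 on chromosome Y was at 15.1, 14.8 and 13.4 RPKM against 6.28, 3.90 and 7.44 RPKM (-1.20, adjusted p = 0.0805). Gm13305 on chromosome 4 was at 0.760, 0.310 and 0.670 RPKM against 5.28, 1.89 and 3.32 RPKM. It reached 1 RPKM in 4 of 18 libraries, 3 of them HFD-STZ-AOS, so it passed the filter through its high group and its p is not given. Gm3448 on chromosome 17 spread widely, with 269, 632 and 630 RPKM against 60.6, 53.6 and 69.2 RPKM (-2.95 ± 0.69, adjusted p = 0.175). In AOS without the diet Gm3448 was at 77.7, 78.0 and 563 RPKM, so low values also occurred outside the diet. Genes of this kind lie in families of similar copies, between which short reads can be split.

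**Figure D1:**
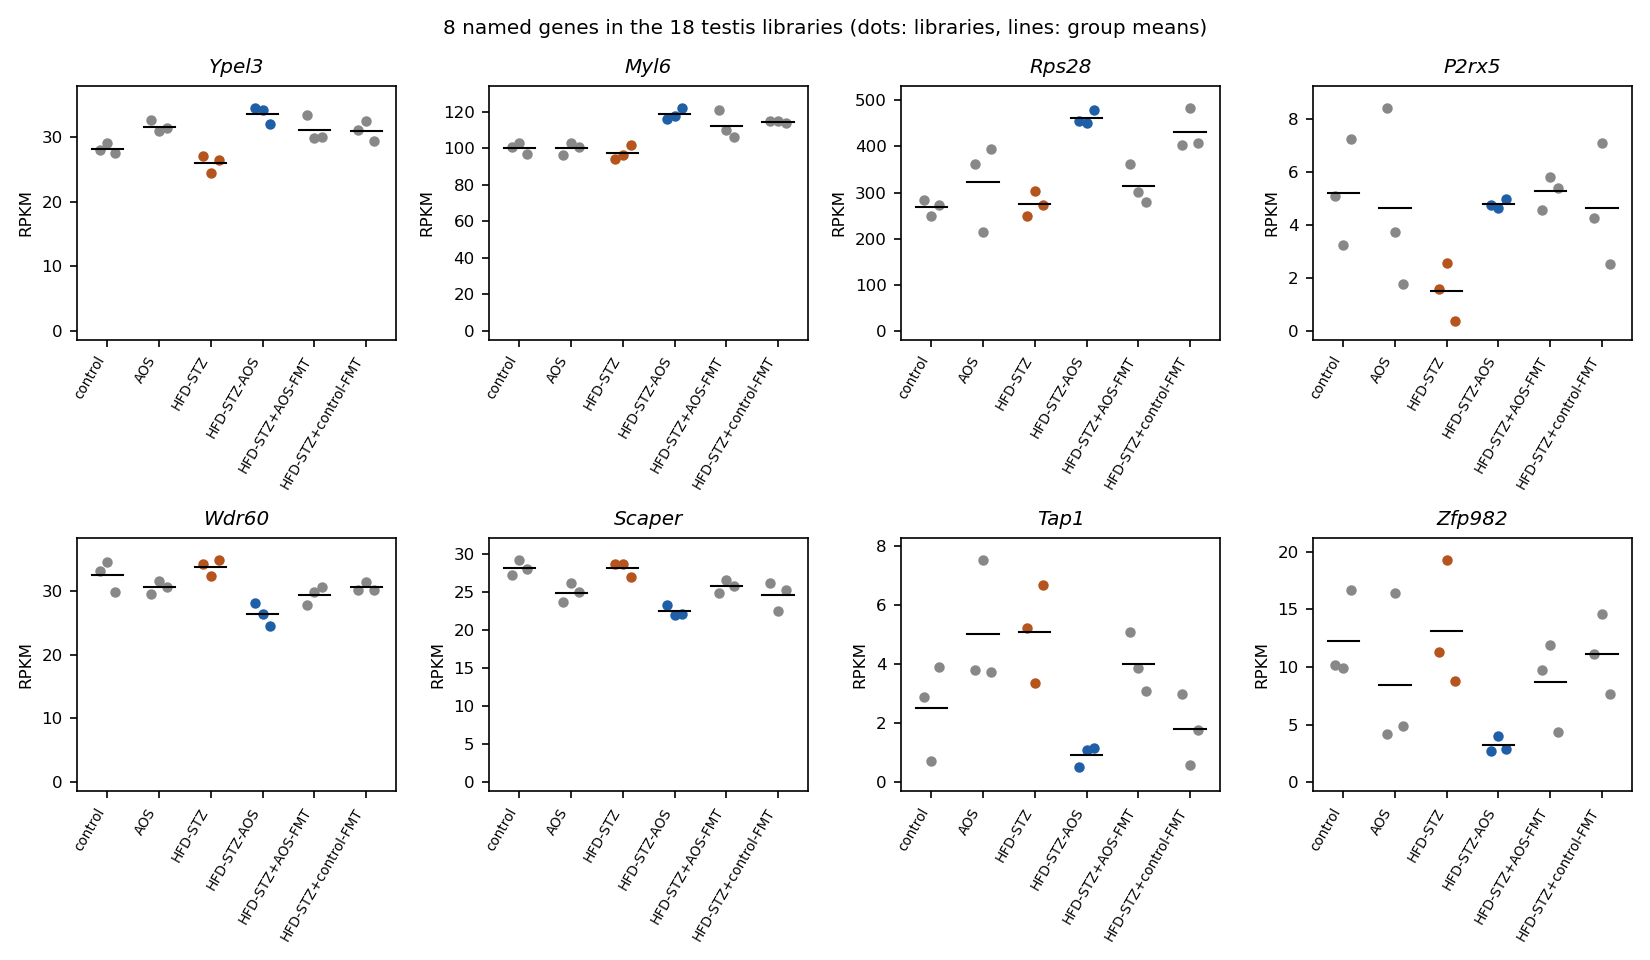
RPKM of 8 genes (vertical axes, linear, each with its own scale) in the 6 groups of 3 libraries, with dots for libraries and lines for group means, HFD-STZ in orange and HFD-STZ-AOS in blue. In all 8 genes the orange and the blue dots do not overlap, which was a condition of their choice. In P2rx5, Tap1 and Zfp982 the grey dots of the other groups spread over much of the range.

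Genes of the cytosolic ribosome were higher in HFD-STZ-AOS almost throughout. The proteins of the large and small subunits form the machine that translates messenger RNA, and their genes are expressed in every cell. Of 46 large subunit genes 45 were higher and 1 lower, and of 32 small subunit genes 31 were higher and 1 lower, against 47.7% higher over all genes. The median differences were 0.17 and 0.20. An unadjusted p under 0.05 was found for 30 of 46 (65.2%) and 24 of 32 (75.0%), all higher, against 6.23% of all genes, and no member passed the adjusted threshold. The groups did not overlap in 32 large and 25 small subunit genes, all higher, against 7.37% of all genes. Rpl30 was at 399, 371 and 411 RPKM in HFD-STZ and at 512, 478 and 493 RPKM in HFD-STZ-AOS (0.33, adjusted p = 0.170). Rps28 had the largest difference of the small subunit genes, with 249, 303 and 272 RPKM against 455, 452 and 480 RPKM (0.75 ± 0.16, adjusted p = 0.170). Its HFD-STZ-AOS libraries were the tighter group of the 2. Rpl10a was at 81.8, 87.6 and 80.9 RPKM against 104, 97.8 and 99.6 RPKM (0.27), and Rps21 at 165, 154 and 181 RPKM against 218, 223 and 232 RPKM (0.43). The summed level of the large subunit genes was 12064 to 12685 RPKM in HFD-STZ and 13721 to 14261 RPKM in HFD-STZ-AOS, and that of the small subunit genes 8493 to 9260 against 10074 to 10406 RPKM. Neither sum overlapped between the groups. Many ribosomal protein genes have processed copies elsewhere in the genome, which can exchange reads with them.

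Mitochondrial energy genes followed the same direction with smaller differences. Respiratory complex I, which takes electrons from NADH, had 34 of 37 nuclear genes higher, with a median of 0.15. An unadjusted p under 0.05 was found for 15 of them, all higher (40.5%, against 6.23% of all genes). Ndufb3 was at 20.7, 23.7 and 22.9 RPKM against 29.7, 27.9 and 27.2 RPKM (0.32, adjusted p = 0.199). In complexes III and IV, 25 of 26 genes were higher and 8 had such a p (30.8%), with a median of 0.13. Uqcr10, a small subunit of complex III, was at 127, 126 and 131 RPKM against 175, 149 and 151 RPKM (0.30). ATP synthase genes were higher in 17 of 18 cases with 8 such p (44.4%) and a median of 0.14, led by Atp5mpl and Atp5l. Mitochondrial ribosomal proteins were higher in 46 of 56 cases with a median of 0.10. At an unadjusted p under 0.05, 11 were higher (19.6%) and 1 lower (1.79%). Without HFD-STZ-AOS replicate 3 these calls were 4 higher and 1 lower. Translation factors had a median of 0.03, with 24 of 37 higher, and of 0.00 without that library. The antioxidant list had 27 of 40 genes higher and a median of 0.04, which was -0.01 without that library and also -0.01 with the trend on transcript length, described below, removed. Of its members, Sod1, the cytosolic superoxide dismutase, was at 290, 289 and 302 RPKM against 320, 341 and 341 RPKM (0.19, adjusted p = 0.202).

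Late germ cell genes were also mostly higher and genes of the flagellar axoneme mostly lower. Of 31 elongating spermatid genes 28 were higher, 13 with an unadjusted p under 0.05 (41.9%, against 6.23% of all genes) and a median of 0.12. The transition protein gene Tnp1, whose product replaces histones before the protamines do, was at 6628, 6358 and 6968 RPKM against 8022, 7237 and 8068 RPKM (0.22, adjusted p = 0.273). Prm1 was at 12857, 12920 and 14483 RPKM against 16544, 14126 and 16703 RPKM (0.23, adjusted p = 0.304), and here the groups overlapped. In bulk tissue, more cells of a type and more RNA per cell cannot be told apart. Fibrous sheath and outer dense fibre genes, which build the sleeve around the sperm tail, were higher in 16 of 23 cases with 7 such p (30.4%). The axoneme is the microtubule core of the tail, beaten by dynein motors, and 41 of its 57 tested genes were lower. Of these, 14 had an unadjusted p under 0.05 (24.6%, against 6.26% of all genes), 1 gene was higher at that level (3 without HFD-STZ-AOS replicate 3), and the median was -0.06. Hydin, of the central pair of microtubules, was at 17.3, 17.1 and 16.8 RPKM against 14.4, 15.6 and 14.4 RPKM (-0.19, adjusted p = 0.199). Cfap74 was at 33.2, 32.8 and 29.8 RPKM against 27.6, 28.8 and 25.9 RPKM (-0.21, adjusted p = 0.191). In both genes every HFD-STZ-AOS library was below every HFD-STZ library.

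Intraflagellar transport, the traffic that builds cilia and tails, had 26 of 37 genes lower and 6 with an unadjusted p under 0.05 lower against 2 higher (16.2% and 5.41%, beside 6.26% and 6.23% of all genes). Without HFD-STZ-AOS replicate 3 these were 5 lower and 4 higher. Besides Wdr60, its dynein-2 heavy chain Dync2h1 was at 12.7, 12.5 and 12.8 RPKM against 10.9, 11.6 and 11.3 RPKM (-0.15, adjusted p = 0.267). Meiotic genes had 7 of 41 lower at that level (17.1%, beside 6.26% of all genes) and 0 higher. Sycp1, the transverse filament of the synaptonemal complex, was at 64.2, 66.8 and 60.3 RPKM against 52.4, 56.4 and 54.2 RPKM (-0.23, adjusted p = 0.216). Its lateral element partner Sycp3 showed no such pattern, at 195, 177 and 172 RPKM against 183, 192 and 167 RPKM (adjusted p = 0.995). Stra8, which starts meiosis, was at 8.37, 8.51 and 7.59 RPKM against 7.83, 9.04 and 8.67 RPKM, with overlap.

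**Figure D2:**
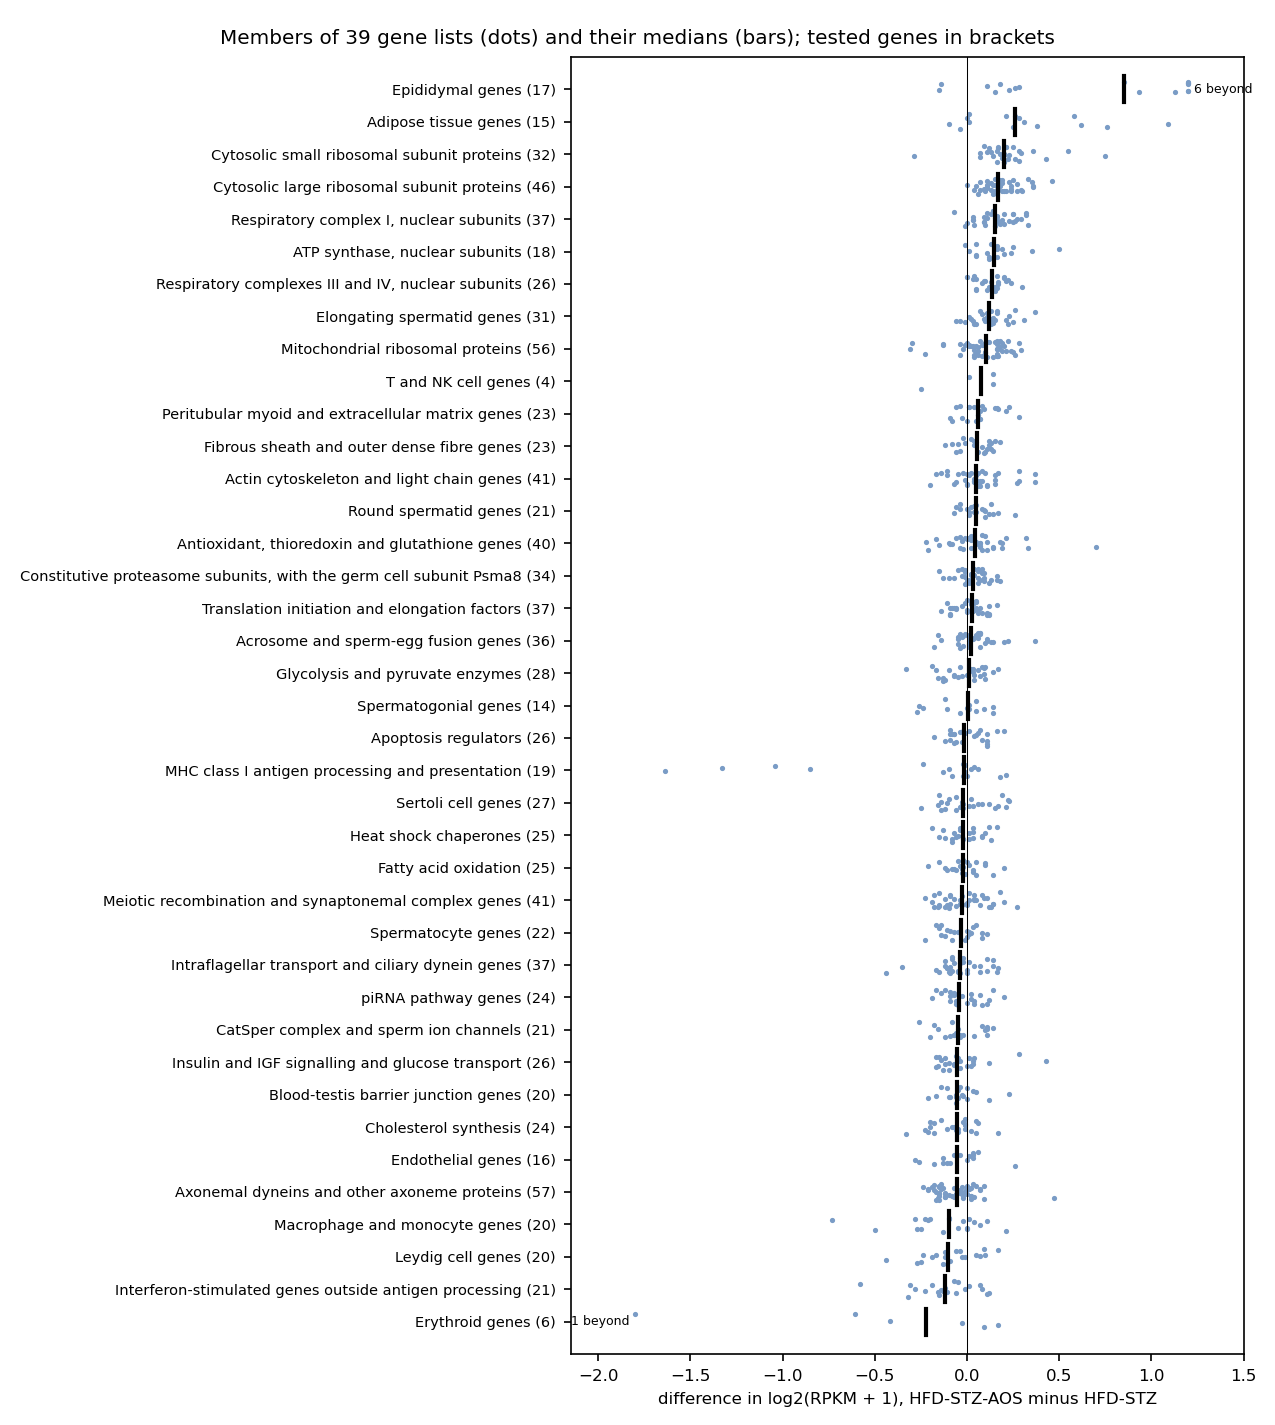
Difference in log2(RPKM + 1) between HFD-STZ-AOS and HFD-STZ (horizontal axis) for the tested members of 39 gene lists, with a dot per gene and a black bar at the list's median. Dots beyond the frame are drawn at its edge and counted. Ribosomal and respiratory lists sit at medians of 0.10 to 0.20, the axoneme at -0.06, and the antigen processing list at -0.02 with 4 genes far to the left.

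These group differences moved with transcript length, which was measured from the longest annotated transcript of each gene. The genes were put into 5 bins of equal size. In the bin of the shortest transcripts (165 to 1696 bases) the median difference was 0.081, 16.0% were higher and 2.03% lower at an unadjusted p under 0.05. The next bins had medians of 0.016, -0.010 and -0.030, and in the bin of the longest (4984 to 123179 bases) the median was -0.061, with 1.58% higher and 13.1% lower. Leaving out HFD-STZ-AOS replicate 3 gave medians of 0.079 in the shortest and -0.086 in the longest bin, and AOS against control, which shares no library with this comparison, gave 0.044 and -0.072. Large and small subunit genes of the ribosome had median lengths of 1054 and 1102 bases, complex I genes 1046, elongating spermatid genes 1070 and axoneme genes 3390 bases. When each library's trend on length was removed, the large and small subunit lists had medians of 0.09 and 0.14, with 17 and 13 genes at an unadjusted p under 0.05, all higher. Complex I was then at 0.05 with 7 such genes, complexes III and IV at 0.03 with 1 higher and 1 lower, elongating spermatid genes at 0.03 with 2, fibrous sheath genes at 0.02 with 0 higher and 1 lower, mitochondrial ribosomal proteins at 0.06 with 6 higher and 4 lower, and the axoneme at -0.03 with 10 lower. Over all 13578 genes with a length, 676 were then higher and 678 lower at that p. Of single genes, Tbp was then at -0.09, Hydin at -0.10, Dync2h1 at -0.06, Pfn3 at 0.20, Uqcr10 at 0.13 and Tnp1 at 0.04. Others moved less, with Ypel3 at 0.32, Myl6 at 0.29, Wdr60 at -0.33 and Tap1 at -1.61. Before this removal the ribosomal shares were above the 16.0% of the shortest bin. So were those of complex I (40.5%), complexes III and IV (30.8%), ATP synthase (44.4%) and elongating spermatid genes (41.9%). Fibrous sheath genes (30.4%) and mitochondrial ribosomal proteins (19.6%) were above it as well. Their median lengths were 1658 and 1923 bases, the latter outside that bin. Shares before the removal do not say how much of a list's difference went with length. The part of RNA fragment length or quality in these differences was not tested.

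**Figure D3:**
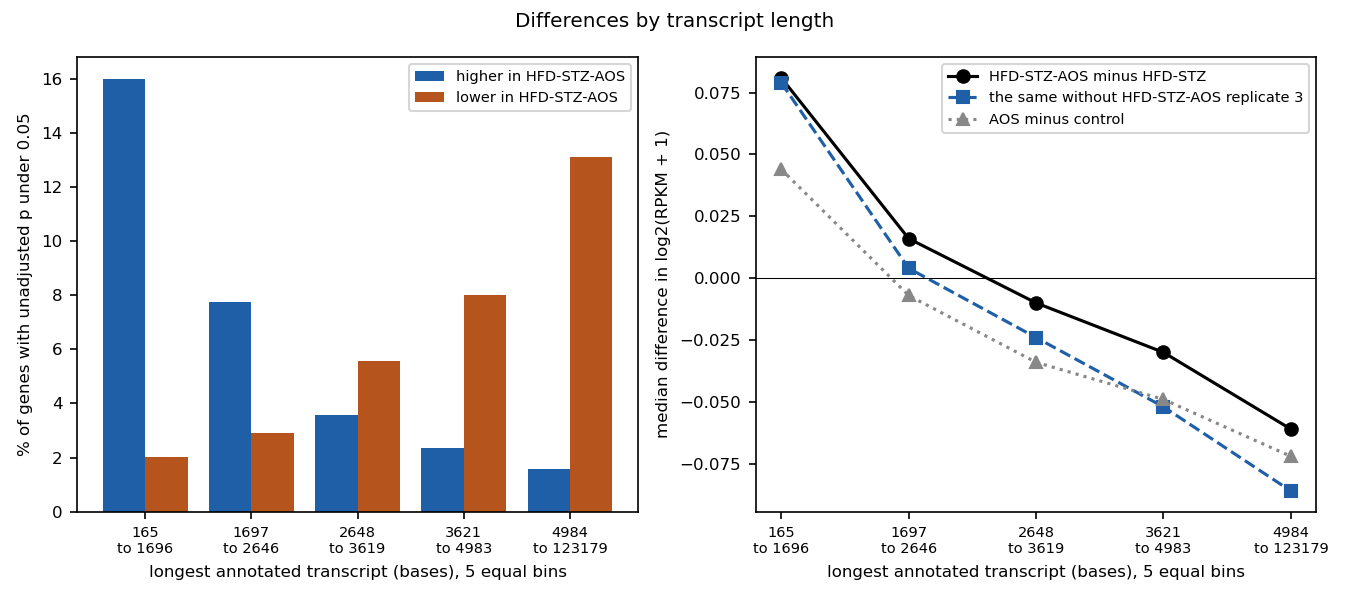
Left, share of genes (in %) with an unadjusted p under 0.05 that were higher (blue) or lower (orange) in HFD-STZ-AOS, in 5 equal bins of transcript length in bases. Right, median difference in log2(RPKM + 1) in the same bins for this comparison, for the same without HFD-STZ-AOS replicate 3 and for AOS against control; all 3 lines run from above 0 for short to below 0 for long transcripts.

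Tap1 and its neighbours in the MHC class II region of chromosome 17 were lower in HFD-STZ-AOS. Tap1 and Tap2 encode the 2 chains of the pump that carries peptides into the endoplasmic reticulum for loading on MHC class I, and Psmb8 and Psmb9 encode immunoproteasome subunits that cut those peptides. Between and around these genes lie MHC class II genes, whose products show peptides to helper T cells, and H2-DMb1 and H2-Ob, which steer the loading of class II. In the GRCm38/mm10 build, Tap1 spans chr17:34187553-34197225, and Psmb9, on the opposite strand at chr17:34181987-34187764, overlaps its first bases. Psmb8 lies at chr17:34197721-34201454 and Tap2 at chr17:34203527-34216321. Sequences before the starts of genes in this stretch are shown because they are neighbours in it; H2-Aa, whose groups overlapped, is among them. They come from RefSeq (GRCm38.p6) and run 5′ to 3′ on the strand of the gene. Starts are those of RefSeq, which for Psmb9 and Psmb8 lie inside the longer gene spans of GENCODE given above, so that the sequences shown for these overlap annotated exons. Capitals mark the Y box core TGATTGG, an element of MHC promoters, on either strand.

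H2-Ob, chr17:34238655-34238902, plus strand: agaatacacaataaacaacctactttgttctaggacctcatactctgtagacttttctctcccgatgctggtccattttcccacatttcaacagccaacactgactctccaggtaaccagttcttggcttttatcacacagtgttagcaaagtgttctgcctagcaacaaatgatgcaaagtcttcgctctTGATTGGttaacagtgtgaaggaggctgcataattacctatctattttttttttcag
H2-Eb1, chr17:34305721-34305866, plus strand: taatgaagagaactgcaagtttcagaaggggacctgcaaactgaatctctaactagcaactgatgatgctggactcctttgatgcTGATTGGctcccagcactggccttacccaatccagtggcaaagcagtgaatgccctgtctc
H2-Aa, chr17:34287824-34288073, minus strand: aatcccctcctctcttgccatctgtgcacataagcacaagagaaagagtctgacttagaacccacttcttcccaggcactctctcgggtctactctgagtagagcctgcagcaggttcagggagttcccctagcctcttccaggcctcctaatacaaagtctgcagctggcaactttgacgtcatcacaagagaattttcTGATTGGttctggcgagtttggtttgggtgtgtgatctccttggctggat
Psmb9, chr17:34187331-34187360, minus strand: cctgcaccgcgcgcagccgcTGATTGGaaa

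The core stood 59 bases before the RefSeq start of H2-Ob, 61 before that of H2-Eb1, 50 before that of H2-Aa and 10 before that of Psmb9. The window of 250 bases held TGATTGG on either strand in 6 of the 7 genes of the stretch with a RefSeq promoter (H2-DMb1, Psmb9, Tap1, H2-Ob, H2-Aa and H2-Eb1), and in 9.58% of 13794 promoters of tested genes. Psmb9 and Tap1 share the same match, since their starts face away from each other. H2-D1 and H2-T23 outside the stretch held it as well, and their expression is given below. The interferon-stimulated response element core GAAANNGAA was in none of these 7 windows and in 5.88% of all. The gamma-activated site TTCNNNGAA was in the window of Psmb8 alone and in 6.09% of all. For Psmb8 the match, 97 bases before the RefSeq start, is in capitals in the following 30 bases.

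Psmb8, chr17:34198088-34198117, plus strand: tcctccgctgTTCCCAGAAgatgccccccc

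A GC box, GGGCGG or its complement, stood 176 bases before the RefSeq start of Tap1, as 53.0% of all promoters hold one. The Y box and the GC box were added after the values had been seen. Such matches are descriptions of the letters and not binding sites.

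Tap1 was at 5.20, 3.35 and 6.68 RPKM in HFD-STZ and at 0.530, 1.09 and 1.15 RPKM in HFD-STZ-AOS, with no overlap. Its log2 difference was -1.64 ± 0.38 (adjusted p = 0.170) and it was -1.73 without HFD-STZ-AOS replicate 3. Psmb9 was at 4.63, 3.30 and 4.39 RPKM against 1.11, 0.540 and 1.52 RPKM (-1.33 ± 0.34, adjusted p = 0.199). Tap2 was at 3.46, 2.79 and 4.17 RPKM against 0.900, 1.36 and 1.25 RPKM (-1.04 ± 0.24, adjusted p = 0.172), and Psmb8 at 2.14, 2.80 and 3.60 RPKM against 1.06, 0.940 and 1.35 RPKM (-0.85 ± 0.22, adjusted p = 0.199). In all 4 genes the lowest HFD-STZ library was above the highest HFD-STZ-AOS library. H2-Ob, a beta chain that modulates class II loading, was at 1.17, 0.590 and 1.29 RPKM against 0.0300, 0.1 and 0.2 RPKM. It reached 1 RPKM in 3 of 18 libraries, 2 of them HFD-STZ, so it passed the filter through its high group and its p is not given. At the estimated depth these values stand for about 26 to 312 reads per library in Tap1, 20 to 170 in Psmb9, 39 to 172 in Tap2, 23 to 82 in Psmb8 and 1 to 41 in H2-Ob. No member of this stretch passed the adjusted threshold.

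The other genes of the stretch were singled out after their values had been seen, and so was its extent, from H2-DMb1 to H2-Ea-ps, 192 kb long (chr17:34153072-34344645). Leaving H2-Ob aside, the other 9 tested genes in it were lower, 7 of them with an unadjusted p under 0.05 (6.26% of all genes) and 7 without overlap (9.80% of all genes). The choice of the stretch used these differences, so the counts are a description. The stock is outbred, and the part of inherited differences between animals in this stretch was not tested. H2-DMb1 was at 2.41, 1.18 and 3.18 RPKM against 1.00, 0.840 and 0.890 RPKM (-0.72). H2-Eb1, a class II beta chain, was at 3.15, 2.13 and 3.18 RPKM against 1.64, 1.28 and 0.990 RPKM (-0.73). H2-Ab1 was at 16.7, 12 and 17.3 RPKM against 15.1, 7.83 and 9.5 RPKM (-0.50), and H2-Aa at 12.6, 9.11 and 10.3 RPKM against 11, 7.67 and 8.83 RPKM (-0.20). In these last the groups overlapped, and they were the most abundant class II genes of the stretch. H2-Ea-ps, annotated as a polymorphic pseudogene, was at 1.69, 0.590 and 1.93 RPKM against 0, 0.4 and 0.5 RPKM (-0.86).

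Genes on either side did not share the difference. Of the other 32 tested genes with a start within 500 kb of that of Tap1, 11 were lower and 21 higher, with a median of 0.05 and a range of -0.11 to 0.75, the highest being Rps28. The nearest of them, H2-DMa, the partner chain of H2-DMb1, was at 8.32, 7.56 and 6.57 RPKM against 7.17, 6.82 and 7.30 RPKM, with overlap. Class I genes showed no separation either. H2-K1 was at 33.6, 32.3 and 34.1 RPKM against 31.6, 28.6 and 40.4 RPKM, H2-D1 at 37.1, 33.2 and 35.1 RPKM against 26.4, 30.4 and 43.5 RPKM, and H2-T23 had a difference of -0.08. Of the whole antigen processing list, 19 of 22 genes were tested, 13 were lower and 6 higher, and the median was -0.02 (-0.09 without HFD-STZ-AOS replicate 3). The 4 with an unadjusted p under 0.05 were Tap1, Tap2, Psmb9 and Psmb8. The third immunoproteasome subunit gene, Psmb10, which lies outside the region, was at 2.16, 2.00 and 2.73 RPKM against 2.58, 2.43 and 3.43 RPKM (0.21), and the light chain B2m had a difference of -0.13.

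**Figure D4:**
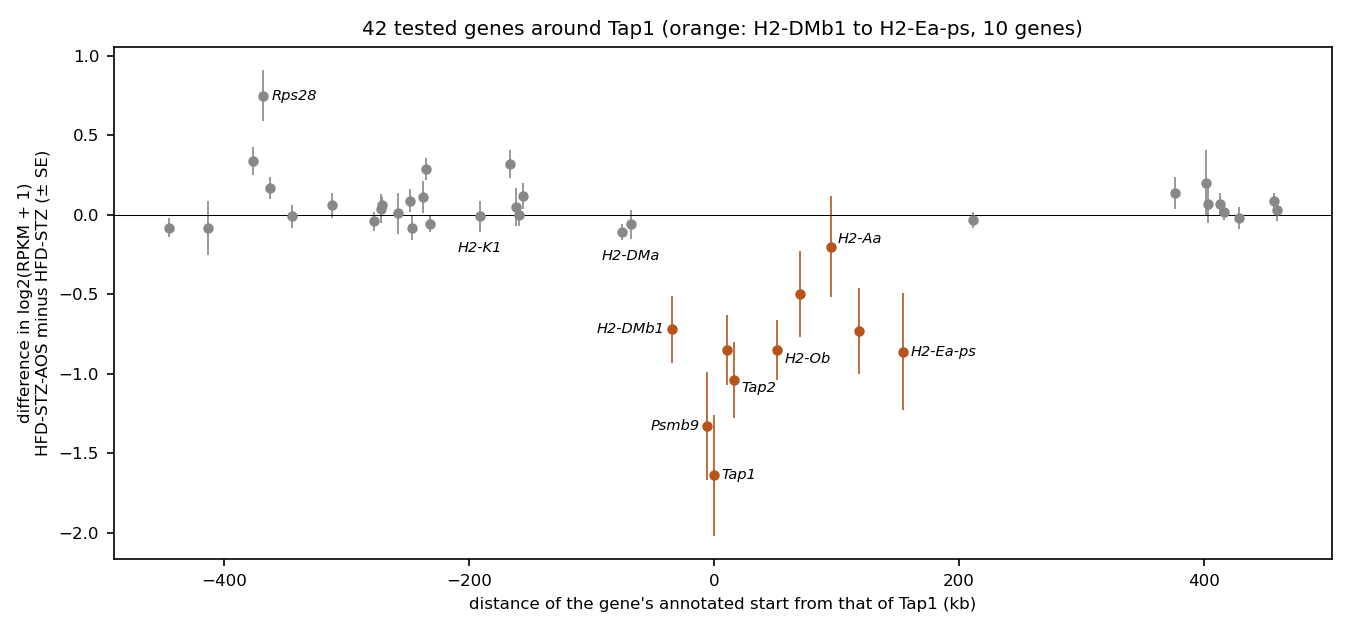
Difference in log2(RPKM + 1) between HFD-STZ-AOS and HFD-STZ, with standard errors, for 42 tested genes against the distance of their start from that of Tap1 in kb. The 10 genes from H2-DMb1 to H2-Ea-ps (orange) lie between -1.64 and -0.20, and the 32 genes outside (grey) between -0.11 and 0.75.

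Interferon-stimulated genes outside antigen processing were mostly lower by small amounts. Among 44 such genes with values, 21 were tested, 16 were lower and 5 higher, with a median of -0.12, and 0 had an unadjusted p under 0.05 in either direction. The groups did not overlap in 4 of them, all lower, beside 9.80% of all genes, and the median was -0.18 without HFD-STZ-AOS replicate 3. Irf7 was at 1.25, 2.74 and 0.940 RPKM against 0.580, 0.520 and 1.03 RPKM (-0.58, adjusted p = 0.5). Macrophage markers, to which class II genes also belong, had a median of -0.10, and of -0.21 without HFD-STZ-AOS replicate 3, with 13 of 20 lower. Their summed level was 457 to 477 RPKM against 459 to 488 RPKM, most of it from Aif1, at 291, 318 and 331 RPKM against 349, 369 and 297 RPKM. The sum thus follows Aif1 and does not stand for the other markers or for the level of macrophages. The difference of Aif1 was 0.11, and -0.01 with the length trend removed. Cd68, a lysosomal protein of macrophages, was at 3.54, 3.61 and 3.92 RPKM against 2.53, 2.99 and 4.94 RPKM, with overlap. The part of macrophage numbers in the lower class II genes was not tested. Of 18 T and NK cell markers with values, 4 passed the filter, and Ccl5, Lck, Cd2 and Cd3d all overlapped between the groups.

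The other groups put the MHC stretch in context. In AOS without the diet, all 10 genes had a higher mean than in control, and Tap1 was at 3.79, 7.52 and 3.72 RPKM against 2.87, 0.730 and 3.89 RPKM. AOS replicate 2 was the highest AOS library in each of the 10 genes. H2-Aa was at 4.18, 11.3 and 3.51 RPKM in AOS against 5.81, 4.83 and 5.81 RPKM in control. Only in Psmb8 did all AOS libraries lie above all control libraries (1.55, 2.58 and 2.06 against 1.49, 0.590 and 1.19 RPKM). The 10 genes were read in the same libraries, so they are not separate observations. The difference of the 2 AOS effects, which share no library, was tested as an interaction in the same limma fit. Over all genes, 0 passed (0%) and 640 (4.61%) had an unadjusted p under 0.05. The interaction was -2.49 ± 0.53 for Tap1 (adjusted p = 0.566), -1.97 ± 0.48 for Psmb9 (0.677), -1.41 ± 0.31 for Psmb8 (0.566) and -1.52 ± 0.34 for Tap2 (0.628). The interaction contains the difference by which these genes were chosen. Hddc3, a hydrolase, had the interaction with the smallest p among the named genes, at 0.63 (adjusted p = 0.495). Rpl10a had one of 0.38 (0.495), with means of 87.8 RPKM in control and 81.0 RPKM in AOS. Vamp8, a SNARE protein of vesicle fusion, had one of 0.62 (0.495), and its values were 6.49, 7.12 and 7.87 RPKM in HFD-STZ against 9.26, 9.44 and 9.52 RPKM in HFD-STZ-AOS. Across all tested genes the AOS difference on the diet and the one without the diet had a Spearman correlation of 0.323 and a Pearson correlation of 0.0879. Genes are not independent replicates, and both differences share the trend with transcript length. Several list medians for AOS against control had the direction seen on the diet. They were 0.10 for elongating spermatid genes, 0.13 for complex I, -0.06 for the axoneme, -0.18 for Leydig genes and -0.19 for cholesterol synthesis. Other lists went the opposite way, among them antioxidant genes (-0.09) and interferon-stimulated genes (0.11).

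The transfer groups stood beside these as follows. Tap1 had means of 2.50 ± 1.6 RPKM in control, 5.01 ± 2.2 in AOS, 5.08 ± 1.7 in HFD-STZ, 0.923 ± 0.34 in HFD-STZ-AOS, 4.01 ± 1.0 after transfer from AOS donors and 1.79 ± 1.2 after transfer from control donors (SD, n = 3 each). HFD-STZ-AOS had the lowest mean, yet control replicate 2 and a library of the control transfer group were as low as its libraries. Wdr60 was lowest in HFD-STZ-AOS as well, with every one of its libraries but replicate 1 below all the others. Ypel3 had a mean of 28.2 RPKM in control and 31.7 RPKM in AOS, between HFD-STZ (25.9) and HFD-STZ-AOS (33.6). Its means after transfer were 31.1 RPKM (AOS donors) and 31.0 RPKM (control donors). Myl6 had 112 and 115 RPKM after these transfers, against 97.6 in HFD-STZ and 119 in HFD-STZ-AOS. Rps28 had 313 and 431 RPKM, against 274 and 462. Higher means than in HFD-STZ thus also occurred after transfer from control donors. Cplx4 stayed near HFD-STZ (0.837), with 0.980 and 0.957 RPKM against 1.75 in HFD-STZ-AOS.

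**Figure D5:**
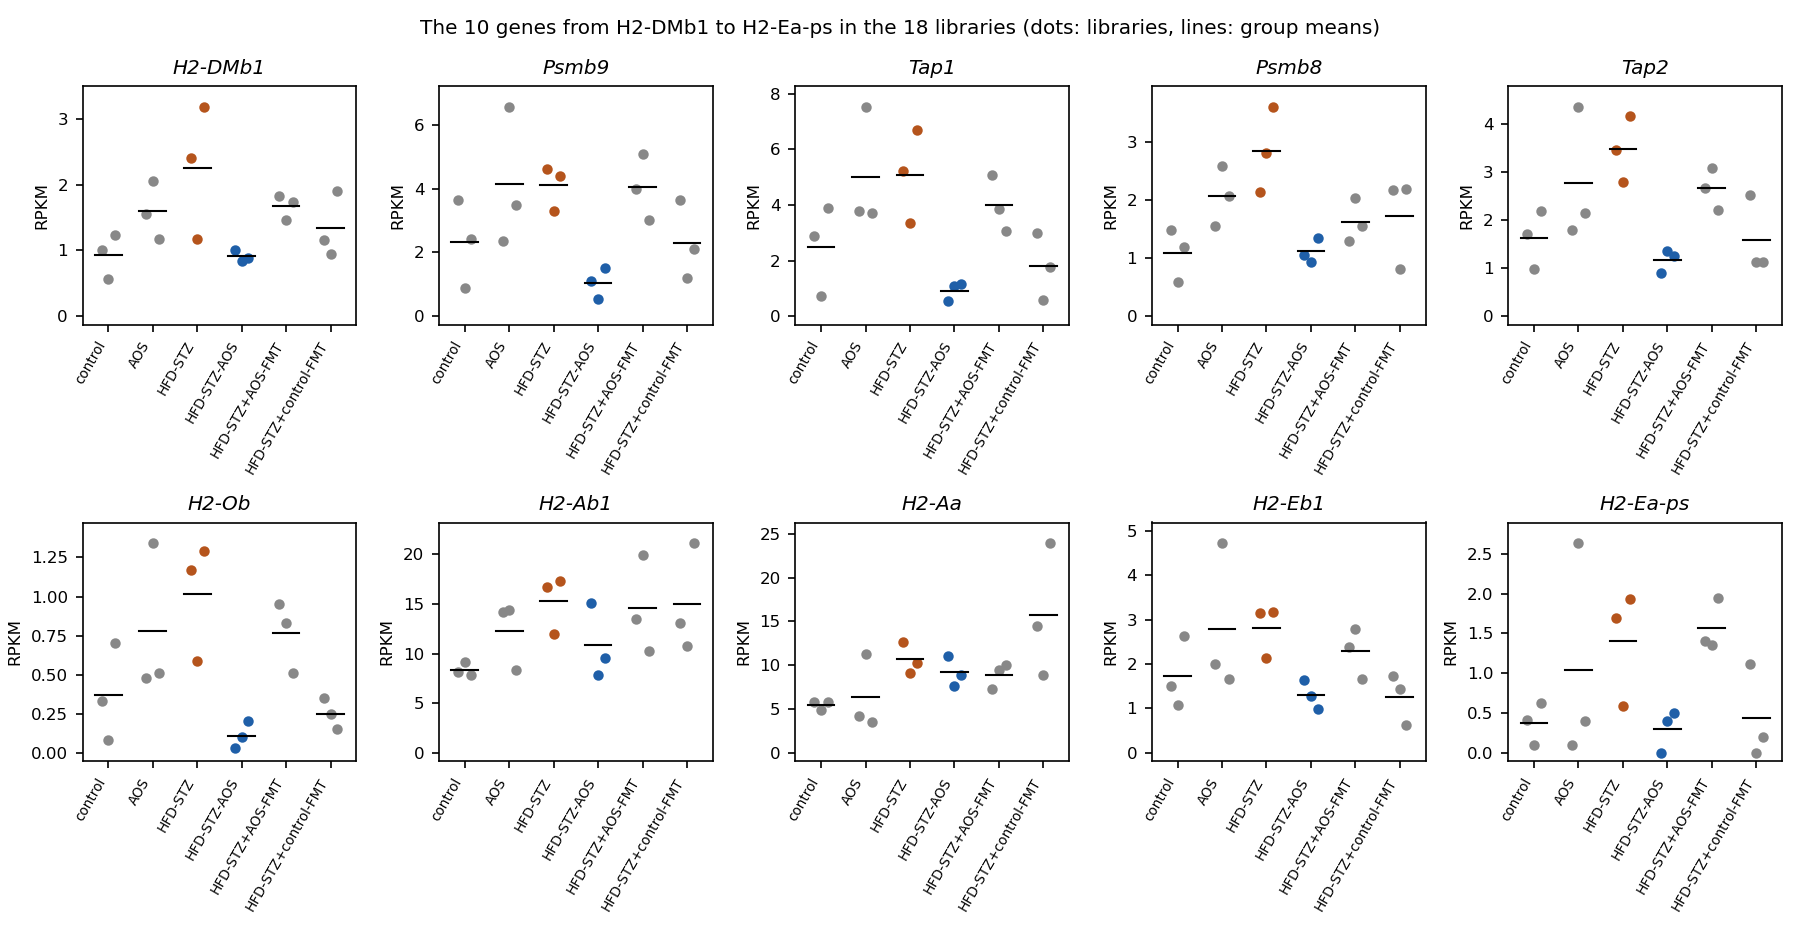
RPKM of the 10 genes from H2-DMb1 to H2-Ea-ps (linear axes, each with its own scale) in 6 groups of 3 libraries, with dots for libraries and lines for means. HFD-STZ-AOS (blue) has the lowest mean of the 6 groups in H2-DMb1, Psmb9, Tap1, Tap2, H2-Ob and H2-Ea-ps. In each of these genes grey dots of control or control transfer libraries reach as low as blue dots.

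Steroid genes of Leydig cells and cholesterol synthesis genes leaned lower without passing. Of 20 Leydig genes 15 were lower with a median of -0.10 and 1 unadjusted p under 0.05, and of 24 cholesterol genes 19 were lower with a median of -0.05 and 2 such p, all lower. These shares were near the 6.26% of all genes. Without HFD-STZ-AOS replicate 3 the medians were -0.17 and -0.10. Of the 20 Leydig genes 4 and of the 24 cholesterol genes 5 then had such a p, all lower. Over all 13874 genes, 1066 were lower at that p without this library, so both shares were then above that of all genes. Lhcgr, the receptor for luteinizing hormone, was at 6.77, 8.67 and 10.1 RPKM against 5.53, 5.95 and 6.46 RPKM (-0.44, adjusted p = 0.373). Cyp17a1, which makes androgen precursors, was at 272, 291 and 303 RPKM against 254, 240 and 234 RPKM (-0.25, adjusted p = 0.424). The groups did not overlap in either gene. Star, which brings cholesterol into mitochondria, was at 39.4, 44.2 and 44.1 RPKM against 31.6, 30.6 and 65.2 RPKM (-0.09), and without HFD-STZ-AOS replicate 3 the difference was -0.44. Hmgcs1, an early enzyme of cholesterol synthesis, had a difference of -0.20, with overlap.

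Sertoli cell, junction and metabolic lists had medians of -0.05 to 0.01, beside -0.007 over all genes. The barrier and the insulin lists were as low in their medians as the cholesterol list. Sertoli markers had a median of -0.02, with Amh and Cldn11 overlapping between the groups at differences of 0.08 and -0.06. Wt1, a transcription factor that keeps Sertoli cells in their fate, was at 12.1, 11.5 and 12.1 RPKM against 10.1, 11.2 and 10.7 RPKM (-0.14, adjusted p = 0.383). Blood-testis barrier junction genes had 15 of 20 lower and a median of -0.05, fatty acid oxidation 16 of 25 lower and -0.02, glycolysis 13 of 28 lower and 0.01, heat shock chaperones -0.02 and apoptosis regulators -0.02. Without HFD-STZ-AOS replicate 3 the medians were -0.09 for the barrier, -0.08 for fatty acid oxidation, 0.01 for glycolysis, -0.05 for chaperones and -0.05 for apoptosis. The insulin and glucose transport list had 17 of 26 lower and a median of -0.05, with 1 unadjusted p under 0.05 (3 without HFD-STZ-AOS replicate 3, where the median was -0.08), that of Slc2a3, a glucose transporter, at 296, 325 and 302 RPKM against 275, 278 and 289 RPKM (-0.13). In blood cell genes, Hbb-bs, a beta globin with near-identical copies, was at 23.9, 31.8 and 20.7 RPKM against 1.03, 2.08 and 26.9 RPKM. HFD-STZ-AOS replicate 3 was thus among the HFD-STZ values, and the alpha globin Hba-a1 overlapped at 114, 144 and 178 RPKM against 97.6, 95.9 and 130 RPKM. The epididymal list had a median of 0.85 with all 6 libraries and 0.20 without HFD-STZ-AOS replicate 3, and the adipose list 0.26 and -0.11.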

How the data were processed

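Testis RNA of 18 libraries in 6 groups was sequenced, and groups and replicate numbers came from the labels. Alignment used Bowtie 0.12.2, and the build was mm10, per the submitters' processing notes, while the counting tool and the annotation, and whether strand was used, are not given in the sources used here. Deposited by the authors were RPKM values per gene symbol; the unit was inferred in part from the values, since the file header names no unit. RPKM depends on library composition and transcript length, and overlapping, antisense and near-identical genes cannot be told apart. Of 20985 rows, 6 rows of 3 repeated symbols were left out, and 22 symbols turned into dates were not named. Depth was estimated from the spacing of low values, searched from 4 to 30 M reads; an earlier estimate by a histogram mode was unstable and was dropped.

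Values were transformed as log2(RPKM + 1), which understates fold changes of low genes. The filter kept genes reaching 1 RPKM in 3 or more libraries, and the test was limma 3.58.1 (R 4.3.3; trended empirical Bayes, 6 group coefficients, 12 residual and 3.71 prior degrees of freedom, two-sided) with p adjusted by Benjamini and Hochberg, threshold 0.05. Tables and plots used Python 3.11.15, numpy 2.4.6, pandas 2.3.3 and matplotlib 3.10.9. The test was checked on simulated data with 200 changed genes among 13874, all with a mean above 2 on the log2 scale; 6 unchanged genes were called. Lengths and positions came from GENCODE vM21 (97.9% of tested genes had a length), and promoters from RefSeq GRCm38.p6.

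Members, the 39 lists and the alternatives were chosen with earlier results of these data known, so lists are described without tests. Named genes were up to 12 per direction with the smallest p and up to 6 per direction with the largest difference (unadjusted p under 0.01), both without overlap, with an assigned symbol and a mean of at least 1 or 2 RPKM in the higher group, then the 4 members of each list with the smallest p, a panel of testis and antigen processing genes, and 5 genes for the interaction. Genes named outside this rule, among them further members of the antigen processing, epididymal and adipose lists, were singled out after their values were seen. Alternatives were median ratio scaling, no filter, a pseudocount of 0.1, only the groups compared, the replicate block, robust empirical Bayes, removal of the length trend (lowess, span 0.3), omission of the 4 libraries highest in Crisp1, and omission of each library.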

Additional observations from a re-analysis of the deposited data

How the results depend on the processing

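The count of genes past the adjusted threshold was 0 in 12 of 14 alternatives. With no filter on low values it was 1, the pseudogene Gm3757 at 0.600, 0.320 and 0.4 RPKM in HFD-STZ and 0 in every HFD-STZ-AOS library (adjusted p = 0.0186). Without the 4 libraries high in Crisp1 it was 2, namely Gm40991 (0.99, adjusted p = 0.0172) and Gm21366 (-1.37, adjusted p = 0.0276). These genes were looked up after their values were seen, and the cause was not tested. The interaction had 0 in all 20 alternatives, and its count at an unadjusted p under 0.05 was 979 with no filter, where more genes were tested, and 554 to 817 with 1 library left out. Omitting each library in turn gave 631 to 955 genes higher and 621 to 1066 lower at an unadjusted p under 0.05.

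Of 186 named genes, 176 kept their direction in every alternative and none passed the threshold in any. The other 10 were as follows. With the length trend removed, Aif1 was at -0.01 and Cd3d at -0.03, and with median ratio scaling Sycp3 was at 0.01. Without the 4 libraries high in Crisp1, Cfd was at -0.01, Lck at -0.13, Cd3d at -0.09 and Sycp3 at 0.05. With each library of the comparison left out in turn, the ranges were -0.01 to 1.73 for Cfd, -0.13 to 0.33 for Lck, -0.06 to 0.29 for Cd2, -0.09 to 0.07 for Cd3d, -0.44 to 0.09 for Star, -0.05 to 0.05 for Sycp3, -0.06 to 0.20 for Amh, -0.15 to 0.03 for Cldn11 and -0.32 to 0.05 for Cd68. Cfd, Lck and Cd3d were lowest without HFD-STZ-AOS replicate 3, as were Star, Cldn11 and Cd68. The alternatives planned for counts were not run, because the deposited values are RPKM. List medians moved by more than the replicate SD in 53 of 546 cases.

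Same-numbered libraries of the 2 groups correlated at 0.016, 0.071 and 0.001 in their deviations from the group means. Libraries with other numbers correlated at -0.045 to 0.028. With 3 libraries a group, these values cannot decide whether the numbers pair the libraries. With the replicate number as a block, 0 genes passed, and 921 were higher and 946 lower at an unadjusted p under 0.05. Depth limits low genes: H2-Ob rested on about 1 read in its lowest library, and read numbers are estimates.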
